A study of Mus musculus with 48 samples.

Results

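Messenger RNA of the nuclear genes of oxidative phosphorylation was measured in 48 mice, in nucleus accumbens shell tissue from the ventral striatum, a part of the brain known for its role in reward. The set was taken by symbol: the protein-coding genes whose names start with Ndufa, Ndufb, Ndufc, Ndufs, Ndufv, Sdha to Sdhd, Uqcr, Cox4 to Cox8 or Atp5, without Cox7a2l and without symbols containing -ps. It held 96 of the 37620 genes in the deposited table. By role, 36 belonged to complex I, 4 to complex II, 8 to complex III, 19 to complex IV and 16 to complex V, and 13 were assembly factors or similar helpers. Of the 96, 93 passed the filter on low values, 1 ppm or more in at least 12 libraries, and were tested among 15350 genes. The unit ppm scales a value to the mean library total, so that 1 ppm is 14.1 of the deposited units.

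The mice belonged to the outbred HS-CC population (heterogeneous stock-collaborative cross) and came from selection generation 4 for ethanol preference. The 4 groups were females of the High preference line, males of the High line, females of the Low preference line and males of the Low line, with 12 mice and 12 poly(A) RNA-seq libraries in each. The tissue was cut out by laser microdissection. No treatment was named, and the sources used here give no ages, families or litters. Each line was 1 population, so selection and drift cannot be told apart.

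Oxidative phosphorylation is the last stage of respiration, carried out in the inner mitochondrial membrane. Complexes I and II take electrons from NADH and succinate, complex III passes them to cytochrome c, complex IV hands them to oxygen, and complex V, the ATP synthase, uses the proton gradient built on the way. Most subunits are encoded in the nucleus and imported, a few are encoded by mitochondrial DNA, and neurons depend heavily on the pathway.

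The deposited totals ran from 13579559 to 14561911 units per library, and the read totals before the authors' scaling were estimated at 10386310 to 18690667. The share of values on the last exons of genes ran from 46.8% to 59.6%. High male replicate 1 had the lowest last-exon share and the lowest median correlation with the other libraries, 0.968. Of the 7 cortical pyramidal neuron markers, 1 passed the filter, and their summed level ran from 1.35 to 20.6 ppm in High females, 1.14 to 163 in High males, 1.99 to 75.2 in Low females and 1.14 to 379 in Low males, with a median of 2.42. Of the 26 spiny neuron markers, the principal cells of this region, 25 passed.

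The subunits were abundant. Together the members made up 2.01% ± 0.173 (SD, n = 48 mice) of the library total. Complex V contributed 0.654%, complex I 0.610%, complex IV 0.404%, complex III 0.204%, complex II 0.0909% and the assembly factors 0.0448%. Per kilobase of transcript, the median tested member stood at 195 ppm, against 8.79 ppm for all tested genes. The medians were 425 ppm per kb in complex IV, 408 in complex V, 281 in complex III, 169 in complex I, 111 in complex II and 16.7 among the assembly factors. Per kilobase of all annotated exons they were 193 in complex IV, 154 in V, 157 in III, 105 in I, 90.1 in II and 12.5 among the assembly factors, so complexes III and V changed places. The lowest value among the complex II genes lay above the median of the assembly factors, while complexes III, IV and V overlapped widely. The share taken by the members was 1.98% ± 0.158 in High females, 2.03% ± 0.222 in High males, 1.98% ± 0.143 in Low females and 2.04% ± 0.175 in Low males (SD, n = 12 each). These group means differed by less than the SD within any group. In such bulk tissue, fewer cells of a type and less RNA per cell cannot be told apart.

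**Figure D1:**
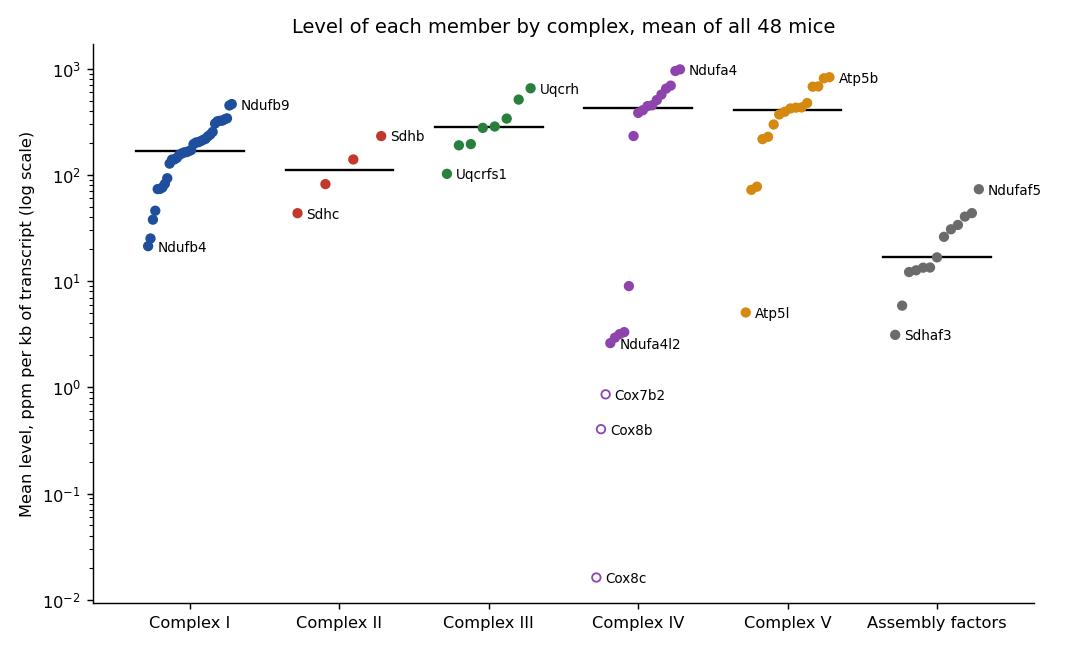
Mean level of each of the 96 genes over 48 mice, in ppm per kilobase of transcript on a log scale, by complex; filled points passed the filter, open points did not, and bars are medians of tested members. Most structural subunits sit between 100 and 1000 ppm per kb, the assembly factors lie lower, and complex IV splits into an abundant set and a set of isoforms under 10.

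In complex I the highest levels per kilobase were those of the accessory subunits Ndufb9 at 464 ± 68.1 ppm per kb, Ndufa1 at 451 ± 74.9 and Ndufa3 at 341 ± 55.6 (mean ± SD, n = 48). The lowest were Ndufb4, another accessory subunit, at 21.3 ± 4.33, and Ndufab1, the mitochondrial acyl carrier protein, at 25.2 ± 2.92. The core subunits Ndufv1, which binds NADH, at 167 ± 12.5 and Ndufs1, an iron-sulfur subunit, at 76.2 ± 7.55 lay between them. Of the 25-base words of Ndufb4, 38.6% occur in Ndufb4c, a processed copy listed at 0 to 4 units, so reads of Ndufb4 could be lost or shared. In complex II the iron-sulfur subunit Sdhb reached 232 ± 22.9, the flavoprotein Sdha 140 ± 15.2, and the membrane anchors Sdhd and Sdhc 81.9 ± 8.34 and 43.6 ± 3.70. The 2 soluble subunits of this enzyme thus stood above its 2 membrane anchors.

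In complex III the small subunits Uqcrh, the hinge protein, at 654 ± 96.6, Uqcr11 at 512 ± 86.4 and Uqcr10 at 339 ± 52.2 led. The Rieske iron-sulfur protein Uqcrfs1, which carries electrons to cytochrome c1, was lowest at 102 ± 10.8, and Uqcrq stood at 190 ± 28.5. In complex IV the highest were Ndufa4, a subunit first assigned to complex I, at 985 ± 131, the regulatory subunit Cox4i1 at 952 ± 111 and the small subunit Cox8a at 693 ± 92.8. In complex V the catalytic beta subunit Atp5b led at 831 ± 60.8. Next came Atp5k, subunit e, at 812 ± 130 and Atp5g3, a gene of the membrane ring's subunit c, at 681 ± 69.2. Atp5b was also the member with the largest deposited value, 19740 to 26425 units with a median of 22542. The lowest of complex V were Atp5l, subunit g, at 5.07 ± 1.56 and Atp5g2 at 72.3 ± 6.83. Atp5l lay far under the other ring and stalk subunits, and 85.6% of its 25-base words occur in transcripts of other genes, so reads of this gene could be lost or shared. Among the assembly factors Ndufaf5, an enzyme of complex I assembly, stood at 73.3 ± 10.6, Ndufaf3 at 43.7 ± 4.80 and Sdhaf4 at 40.5 ± 5.83. The complex II factors Sdhaf1 and Sdhaf3, which help insert iron-sulfur clusters, were lowest at 5.87 ± 0.860 and 3.12 ± 0.513. The 3 X-linked members were Ndufa1, Ndufb11 at 195 ± 24.7 and Cox7b at 232 ± 33.4.

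Several complex IV subunits and subunit c exist as paralogous genes, and the balance between them was uneven. Of the summed deposited values of a pair, Cox4i2, the isoform known from lung and low oxygen, took 0.299% ± 0.128 against Cox4i1. The heart and muscle isoform Cox6a2 took 1.62% ± 0.395 against Cox6a1, and its counterpart Cox7a1 took 0.442% ± 0.157 against Cox7a2. The testis isoform Cox6b2 took 0.494% ± 0.191 against Cox6b1, and Ndufa4l2, known for its induction by low oxygen, took 0.475% ± 0.145 against Ndufa4 (SD, n = 48). All of these isoforms were detected in every mouse, with lowest deposited values of 10, 40, 5, 3 and 17 units. Atp5g1 took 29.7% ± 1.43 of the sum with Atp5g3, and Atp5g2 took 8.01% ± 0.732, although the 3 genes encode the same mature subunit c. All these shares are of deposited values and are not corrected for transcript length. Per kilobase, the level of Atp5g3 was 8.79 times that of Atp5g1 and 9.42 times that of Atp5g2. Atp5g1 and Atp5g2 thus lay close together per kilobase. Of the words of Atp5g2, 87.8% occur in the processed copy Gm10175, so reads of Atp5g2 could be lost or shared. The minor isoforms were thus a small part of each pair, while subunit c drew on more than 1 gene.

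The 3 members that failed the filter were tissue-restricted isoforms of complex IV. Cox7b2 ranged from 0 to 29 units with a mean of 6.54 and was listed at 0 in 1 mouse. Cox8b, the heart and muscle counterpart of Cox8a, ranged from 0 to 10 and was listed at 0 in 12 mice. Cox8c ranged from 0 to 2 and was listed at 0 in 44 mice. No fold change is given for them. Of the 9 markers of skeletal and cardiac muscle, 5 passed the filter. In High minus Low, 1 of these 5 lay above 0, with a median of -0.05, and none was called.

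By group, the paralog balances differed by less than the summed SDs in each of the 4 pairs given here. These SDs describe single mice and not the precision of a group mean, and differences in balance were not tested. Atp5g1 took 29.0% ± 1.32 of its pair in High females, 30.3% ± 1.70 in High males, 30.2% ± 1.17 in Low females and 29.4% ± 1.16 in Low males (SD, n = 12 each). The share of Cox6a2 was 1.44% ± 0.557, 1.58% ± 0.326, 1.58% ± 0.225 and 1.87% ± 0.304 in the same order, and that of Cox7a1 was 0.514% ± 0.181, 0.369% ± 0.157, 0.403% ± 0.135 and 0.482% ± 0.124. The testis isoform Cox6b2 took 0.396% ± 0.167 and 0.453% ± 0.183 in High females and males and 0.572% ± 0.178 and 0.554% ± 0.20 in Low females and males, so both Low means were above both High means. Across mice after removing group means, Atp5g1 and Atp5g3 co-varied (Pearson r = 0.84, n = 48), Atp5g2 and Atp5g3 less so (r = 0.55), and Ndufa4l2 ran weakly against Ndufa4 (r = -0.24). These correlations are descriptions over libraries that share depth and RNA quality within each mouse.

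The promoters of the set were examined because many of these genes are known targets of nuclear respiratory factor 1 (NRF1) and of the ETS-family factor GABP. RefSeq windows on GRCm38.p6, from 250 bases before to 50 bases after the annotated start, were matched for 77 members and gave 82 windows. The NRF1 letters, GCGCA then any base then GCGC, searched like the others on both strands, occurred in 26.8% of the members' windows and in 4.60% of all 32851 windows. The ETS letters CCGGAAG occurred in 25.6% and 8.86%, the YY1 letters CCATNTTG in 14.6% and 5.05%, the Sp1 letters GGGCGG in 45.1% and 35.7%, and CCAAT in 42.7% and 37.4%. No string contains another, and a match is a description of letters and not a site. By complex the NRF1 letters were found for 7 of 32 complex I genes, 2 of 3 in complex II, 1 of 5 in complex III, 1 of 13 in complex IV, 6 of 13 in complex V and 4 of 11 assembly factors. NRF1 or ETS letters, or both, were found for 37 of the 77. The 150 bases before the start are shown for 4 genes that differ both in these letters and in how closely they followed the other members across mice, with NRF1 and ETS matches in capitals. These 4 do not show a relation between the 2 traits. Ndufa11 and Atp5g3, for example, also held the NRF1 letters and had r = 0.95 with the mean of the other members. Sdha, on chr13:74350241-74350390 (GRCm38.p6, minus strand), held the NRF1 letters at 3 places, starting at -98, -55 and -10 from the start. Ndufs5, on chr4:123718187-123718336 (minus strand), held them once, at -98. Uqcrh, on chr4:116075071-116075220 (minus strand), held the ETS letters at -10 on the opposite strand and CCAAT at -52. Cox7a2, on chr9:79759854-79760003 (minus strand), held neither NRF1 nor ETS letters in the window and the Sp1 letters at -44.
Sdha: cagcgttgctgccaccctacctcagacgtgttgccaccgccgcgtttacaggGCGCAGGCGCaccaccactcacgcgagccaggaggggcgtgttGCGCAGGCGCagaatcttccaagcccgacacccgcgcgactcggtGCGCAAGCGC
Ndufs5: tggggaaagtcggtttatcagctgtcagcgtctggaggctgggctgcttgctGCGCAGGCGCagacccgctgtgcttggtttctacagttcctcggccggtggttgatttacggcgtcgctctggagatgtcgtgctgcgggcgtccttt
Uqcrh: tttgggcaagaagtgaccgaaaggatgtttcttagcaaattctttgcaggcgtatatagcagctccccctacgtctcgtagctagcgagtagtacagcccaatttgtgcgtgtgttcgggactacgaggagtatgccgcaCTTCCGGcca
Cox7a2: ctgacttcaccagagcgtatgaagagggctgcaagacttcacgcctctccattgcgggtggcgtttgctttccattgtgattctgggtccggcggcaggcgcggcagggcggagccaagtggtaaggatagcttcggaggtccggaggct

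The main question of the design was whether the High and Low lines differed. No member passed the test with both sexes averaged (limma, Benjamini-Hochberg adjusted p under 0.05 over 15350 genes), where 43 genes or 0.280% of all tested were called. At an unadjusted p under 0.05 there were 3 members, 3.23% of 93, where the share of all tested genes was 9.07%. The difference High minus Low was above 0 for 45 members and below 0 for 48, against 48.5% above 0 for all tested genes, and the members' median was -0.002 on the log2 scale. The count above 0 was 24 with the last-exon share as a covariate, 29 with cortical pyramidal markers and 60 without High male replicate 1, so the even split depends on these choices. It was smaller than 0.1 in size for 86 of 93, and the 95% confidence interval lay within ±0.3 for 89. The 4 whose interval reached beyond ±0.3 were Ndufs5, Cox6a2, Cox6b2 and Cox4i2, among the most variable members. All fold changes are on the log2(value + pseudocount) scale, with a pseudocount of 0.5 ppm, which understates the change of weakly expressed genes.

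The abundant subunits lay level in both lines. Atp5b, the catalytic subunit of the ATP synthase, ran from 19740 to 25412 units with a median of 21836.5 in the 24 High mice and from 20061 to 26425 with a median of 22801 in the 24 Low mice. Its log2 difference was -0.02 (SE 0.03), and 8 of the 24 High values exceeded the Low median. Cox4i1 ran from 6961 to 12126 with a median of 10265 in High and from 7991 to 13459 with a median of 10076 in Low. Its log2 difference was -0.03 (SE 0.05). The 2 lines overlapped over nearly their whole range for both genes.

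**Figure D2:**
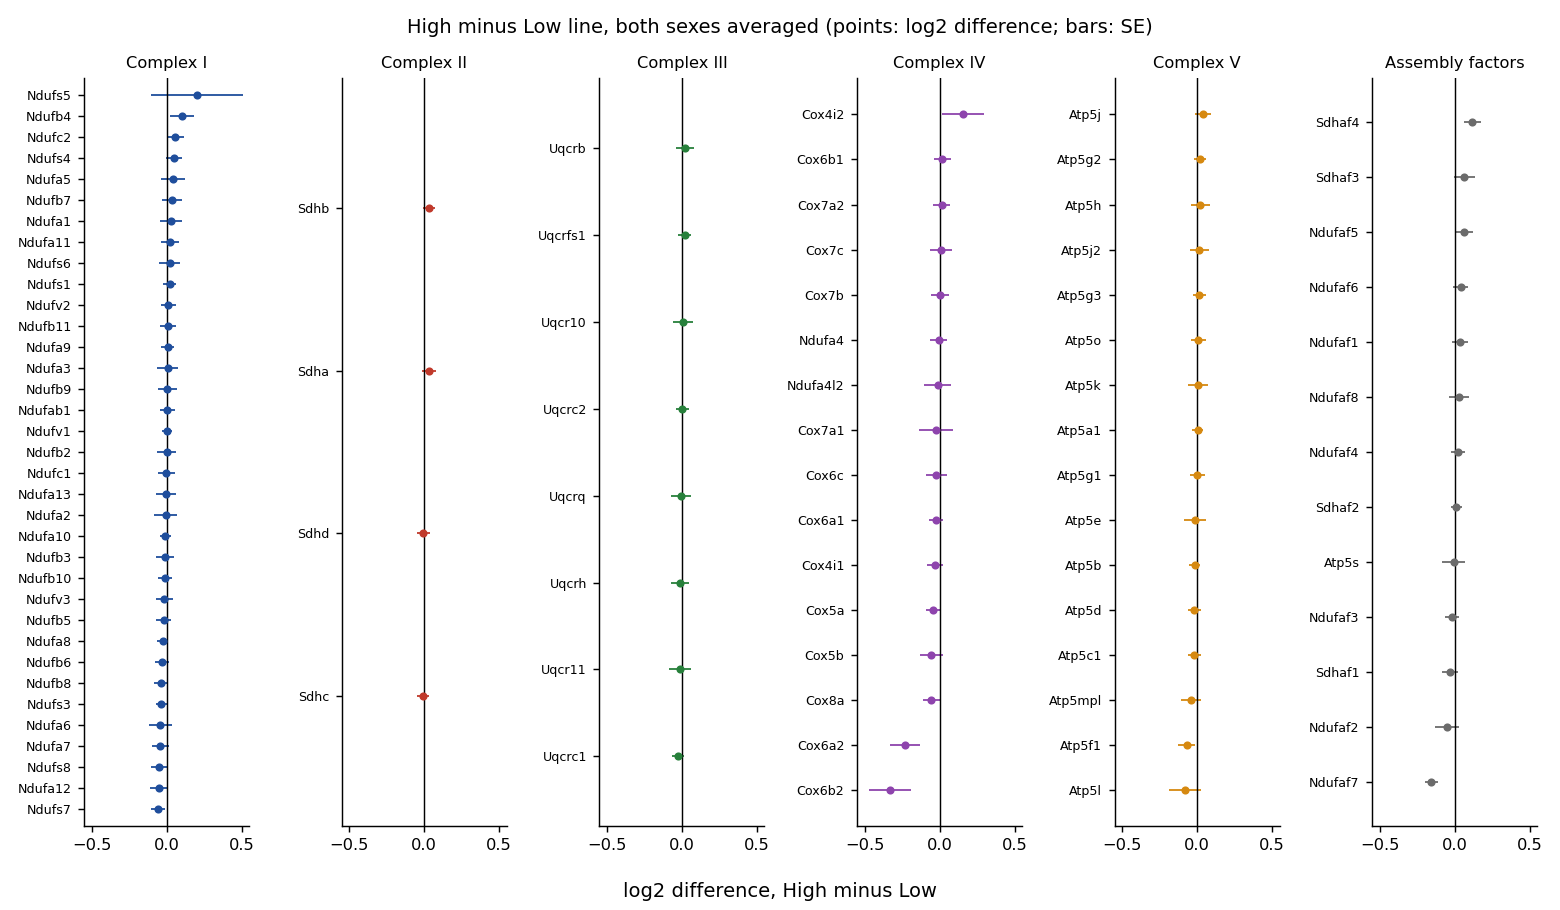
Log2 difference High minus Low for the tested members, sexes averaged, by complex, with 1 complex I gene left out; points are estimates and bars are 1 SE from limma. Most points lie within 0.1 of 0, the wide bars belong to Ndufs5 and the minor complex IV isoforms, and Ndufaf7 is the member whose estimate lies farthest from 0 in units of its SE.

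Ndufaf7 came closest to a call. It encodes a methyltransferase that acts in complex I assembly, lies on chromosome 17 (first listed exon start 79336475, mm9) and has the identifier ENSMUSG00000024082. Its values ran from 502 to 831 units with a median of 718.5 in the High line (mean 715 ± 76.3 SD, n = 24) and from 677 to 933 with a median of 801 in the Low line (mean 796 ± 67.8, n = 24). The ranges overlapped, and 3 of 24 High values exceeded the median of the Low line. The log2 difference was -0.16 (SE 0.04, limma p = 0.00047, adjusted p = 0.0868), which did not pass. Over 14 alternatives the difference ran from -0.16 to -0.13 and the adjusted p from 0.0413 to 0.128. It passed under 1 of them, with the last-exon share as a covariate. The 2 genes whose levels followed it most closely, looked up after its values were seen, were its neighbours Cebpzos (r = 0.73) and Cebpz (r = 0.62) on chromosome 17. For the line contrast Cebpz stood at -0.17 (adjusted p = 0.262) and Cebpzos at -0.12 (adjusted p = 0.57). Ndufaf7 shares 7.59% of its 25-base words with other transcripts.

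Within complex IV, the minor isoforms Cox6b2 and Cox6a2 were the other members under an unadjusted p of 0.05. Cox6b2 ran from 3 to 41 units with a median of 21.5 in High and from 14 to 49 with a median of 26.5 in Low, a log2 difference of -0.33 (SE 0.14, adjusted p = 0.418). Cox6a2 ran from 40 to 142 with a median of 73.5 in High and from 60 to 128 with a median of 92.5 in Low, a difference of -0.23 (SE 0.10, adjusted p = 0.435). The lines overlapped for both, and 8 and 6 of 24 High values exceeded the medians of the Low line. Neither passed in any alternative. The constitutive partners Cox6b1 and Cox6a1 differed by 0.02 (SE 0.06) and -0.02 (SE 0.05).

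Among the other complexes, the members with the smallest p values had small differences. In complex I these were Ndufb4 at 0.11 (SE 0.08, adjusted p = 0.75) and the core subunit Ndufs7 at -0.06 (SE 0.05, adjusted p = 0.766). In complex II they were Sdhb at 0.03 (SE 0.04) and Sdha at 0.03 (SE 0.05). In complex III Uqcrc1, a core protein, stood at -0.02 (SE 0.04) and Uqcrfs1 at 0.02 (SE 0.04). In complex V the stalk subunit Atp5f1 stood at -0.07 (SE 0.06) and Atp5l at -0.08 (SE 0.11). Sdhaf4, a factor that protects the flavoprotein of complex II, had 0.12 (SE 0.06, adjusted p = 0.555), and 15 of 24 High values exceeded the median of the Low line. Among the members of at least 5 ppm, the largest positive differences also included Ndufs5 at 0.20 (SE 0.31), Sdhaf3 at 0.06 and Ndufaf5 at 0.06, and the largest negative ones Cox8a at -0.05. None of these exceeded the spread between mice by the test.

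Within each sex the lines were compared in the same fit. In females no member passed, against 0.0261% of all tested genes, and 0 members had an unadjusted p under 0.05, against 4.68%. The difference was above 0 for 55 of 93, against 48.8%, and for 19 of 93 with the last-exon share as a covariate. Cox6b2 ran from 10 to 37 units with a median of 16 in High females and from 18 to 46 with a median of 26.5 in Low females, a difference of -0.39 (SE 0.20). Cox7a1 stood at 0.28 (SE 0.16), Ndufb4 at 0.19 (SE 0.11), Atp5k at 0.10 (SE 0.10), Ndufc2 at 0.09 (SE 0.08), Ndufaf5 at 0.09 (SE 0.09) and Ndufaf7 at -0.09 (SE 0.06). The adjusted p was 1 after rounding for each of them. In complexes II, III and V the smallest p values otherwise belonged to Sdhc at 0.02, Sdha at -0.02, Uqcrb at 0.06, Uqcrc1 at -0.04 and Atp5b at -0.05.

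In males no member passed either, against 0% of all tested genes, and 1 had an unadjusted p under 0.05, against 6.93%. That member was Ndufaf7, which ran from 502 to 813 units with a median of 704 in High males and from 697 to 903 with a median of 809 in Low males. Its difference was -0.22 (SE 0.06, adjusted p = 0.295). Cox7a1 stood at -0.32 (SE 0.16), Cox6a2 at -0.25 (SE 0.14), Sdhaf4 at 0.15 (SE 0.08), Atp5mpl, a small proteolipid of complex V, at -0.15 (SE 0.10), Sdha at 0.09 (SE 0.06), Ndufs7 at -0.09 (SE 0.07), Ndufb10 at -0.08 (SE 0.07) and Atp5g2 at 0.08 (SE 0.06). The difference was above 0 for 28 of 93, against 50.0% of all tested genes. That count rested on 1 library: without High male replicate 1 it was 63 of 93. In complex I, 29 of 36 members lay below 0 in males and 23 of 36 above 0 in females with all libraries.

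The difference between the sexes' line differences was tested directly. No member passed, against 0% of all tested genes, and 1 had an unadjusted p under 0.05, against 2.40%. This was Cox7a1, at 0.60 (SE 0.23, p = 0.0117, adjusted p = 1 after rounding). Its values ran from 12 to 37 units with a median of 18 in High females, 5 to 29 with a median of 14 in High males, 6 to 26 with a median of 16 in Low females and 12 to 28 with a median of 20.5 in Low males. All 4 groups overlapped at these low levels. The interaction was above 0 for 60 of 93 members, against 49.1%, and for 20 with the last-exon share as a covariate. Atp5mpl had 0.21 (SE 0.13), Ndufaf7 0.14 (SE 0.08), Ndufb10 0.13 (SE 0.09), Cox7b 0.15 (SE 0.12) and Sdha -0.11 (SE 0.09).

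Females and males were then compared with the lines averaged. No member passed, against 0.0782% of all tested genes, and 2 had an unadjusted p under 0.05, which is 2.15% of 93, against 4.21%. The first was the complex II assembly factor Sdhaf1, which ran from 156 to 243 units with a median of 189 in females and from 160 to 283 with a median of 217 in males. Its log2 difference females minus males was -0.17 (SE 0.05, adjusted p = 0.954). However, 70.6% of its 25-base words are shared, chiefly with the overlapping gene E130208F15Rik, whose levels followed it across mice (r = 0.71), so reads of the pair could not be assigned with certainty. The other was Cox6a2, at 40 to 142 with a median of 76.5 in females and 57 to 128 with a median of 90 in males, a difference of -0.23 (SE 0.10, adjusted p = 0.982). The sexes overlapped for both genes.

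The sign of the sex difference leaned one way. It was above 0 for 13 of 93 members and below 0 for 80, where 47.7% of all tested genes lay above 0. The members' median was -0.03. By complex it was below 0 for 33 of 36 in complex I, 4 of 4 in complex II, 8 of 8 in complex III, 13 of 16 in complex IV, 15 of 16 in complex V and 7 of 13 assembly factors. The count above 0 stayed between 8 and 19 over 14 alternatives. Members followed each other across mice, so their signs are not independent observations, and 89 of the 93 differences were smaller than 0.1. The interval lay within ±0.3 for 88, the exceptions being Ndufs5, Cox6a2, Cox6b2, Cox4i2 and Ndufa4l2. The cytosolic ribosomal protein genes, another set of short and abundant transcripts, lay above 0 for 2 of 45, with a median of -0.07. Named members were Ndufb8 at -0.08 (SE 0.05), Ndufaf3 at -0.08 (SE 0.05), Cox5b at -0.10 (SE 0.07), Ndufa7 at -0.07 (SE 0.06), Sdhb at -0.06 (SE 0.04), Uqcr10 at -0.06 (SE 0.07), Atp5c1 at -0.06 (SE 0.04), Atp5o at -0.06 (SE 0.05) and Uqcrc1 at -0.05 (SE 0.04), each with an adjusted p of 0.982.

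Variation between mice of a group was modest for these genes. The SD of log2 values within groups had a median of 0.20 over the members and 0.232 over all tested genes, and 27 of the 93 lay above that value. The median was 0.146 in complex II, 0.179 in complex V, 0.186 among assembly factors, 0.196 in complex I, 0.216 in complex III and 0.232 in complex IV. Among the steadiest were the catalytic subunit Atp5b at 0.107 and the complex I genes Ndufv1 at 0.112, Ndufa10 at 0.114 and Ndufs3 at 0.118. The most variable were Ndufs5 at 1.11, Cox4i2 at 0.497, Cox6b2 at 0.487, Cox7a1 at 0.391, Atp5l at 0.373, Cox6a2 at 0.345, Ndufa4l2 at 0.310 and Ndufa5 at 0.287. Apart from Ndufs5 and Ndufa5, these have means under 100 units, where counting adds to the spread. Longer members varied less (Spearman rho = -0.59 between transcript length and SD, over 93 genes, which are not independent replicates).

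The spread itself was compared between the lines, as absolute deviations from the group median. No member passed, against 0.0586% of all tested genes, and 1 had an unadjusted p under 0.05, against 3.97%. Atp5g1 ran from 2217 to 3800 units in High males and from 2293 to 3329 in Low males, and its mean deviation was 0.06 larger in the High line (SE 0.03, adjusted p = 1 after rounding). Ndufc2, a complex I accessory subunit, had 0.07 (SE 0.04). The spread was larger in the High line for 75 of 93 members, against 52.7% of all tested genes, and for 53 of 93 without High male replicate 1.

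Ndufs5, an accessory subunit of complex I, had the widest spread of the tested members. Its values ran from 28 to 59 units in 6 mice and from 240 to 754 in all others. After this was seen, a processed copy of the gene named BC002163 (ENSMUSG00000081824, chr16:42955631-42955949, GRCm38, plus strand) was looked up. The copy ran from 6 to 24 units in 13 mice and from 185 to 545 in all others. The mice were therefore sorted by both genes, with 100 units as the limit for each. Ndufs5 was under it in 6 mice, with BC002163 at 401 to 545. BC002163 was under it in 13 mice, with Ndufs5 at 430 to 754. Both were above it in 29 mice, with Ndufs5 at 240 to 415 and BC002163 at 185 to 393. No mouse had both under it, and Ndufs5 values ran on without a break between the last 2 sets, which only the copy separates. The parent gene lies at chr4:123712710-123718202 (GRCm38, minus strand). In the reference the copy aligned over 319 bases with 317 identical, or 99.4%. A stretch of 90 coding bases of Ndufs5, from coding base 16 to 105, is shown with the same stretch of the copy because it holds both differences, which are in capitals; the sequences come from GENCODE M21 transcripts on GRCm38.
Ndufs5: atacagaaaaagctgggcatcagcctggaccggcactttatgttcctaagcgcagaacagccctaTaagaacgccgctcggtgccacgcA
BC002163: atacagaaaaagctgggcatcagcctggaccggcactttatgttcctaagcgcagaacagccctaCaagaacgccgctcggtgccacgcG

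The sum of both varied less than Ndufs5 alone. It ran from 439 to 787 units with a median of 611.5. Its SD of log2 values within groups was 0.223, where that of Ndufs5 alone was 1.11. Its correlation with the mean of the other members was 0.74, where that of Ndufs5 alone was 0.05 (Pearson r, n = 48). By group the sum was 597 ± 100.1 in High females, 635 ± 101 in High males, 586 ± 91.9 in Low females and 617 ± 79.8 in Low males (SD, n = 12 each). The set with low Ndufs5 held 2 High females, 1 High male, 2 Low females and 1 Low male, and the set with a low copy held 2, 7, 2 and 2. The counts were not tested because the sets were drawn from the values. Of the Ndufs5 values, 85.4% fell on the middle of 3 listed exons (start 123393107, chromosome 4, mm9), 13.6% on the exon at 123395266 and 0.968% on the exon at 123389953. Whether these values came from the locus, from the copy or from the way reads were assigned between them was not tested. Looked up after the values were seen, the genes that followed Ndufs5 most closely were Gnl2 (r = 0.62) and Meaf6 (r = 0.56). Both lie on chromosome 4, as does Cenps, which ran most strongly against Ndufs5 (r = -0.63). BC002163 came next (r = -0.62). What lies behind these correlations was not tested.

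**Figure D3:**
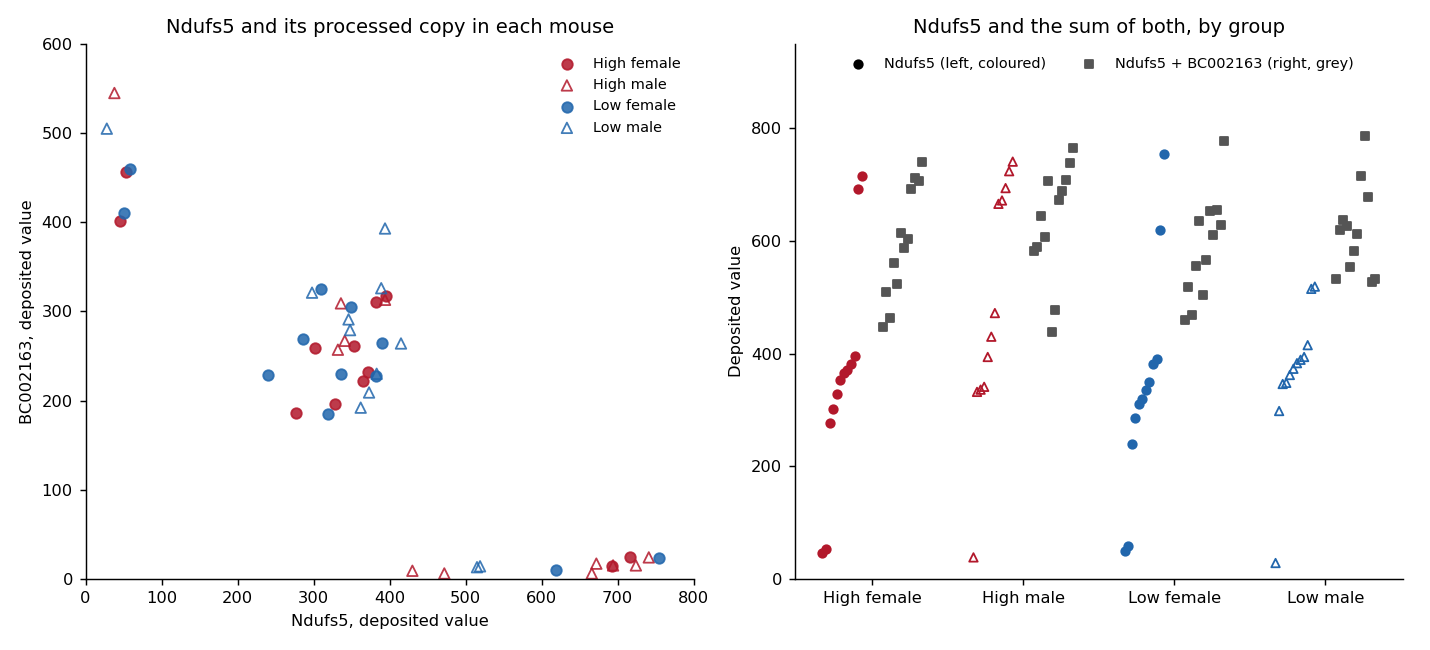
Left, the deposited value of Ndufs5 against that of its processed copy BC002163, 1 point per mouse, coloured by line and shaped by sex. Right, Ndufs5 and the sum of both for the 12 mice of each group, ordered by Ndufs5. In 6 mice Ndufs5 is low and in 13 mice the copy is low, none has both low, and the sums stay between 439 and 787.

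Other members were checked for shared sequence in the same way. Of the 96, 19 shared no 25-base word with another transcript, 40 shared more than 10% and 9 more than 50%. These 9 were Atp5g2 (87.8%), Atp5l (85.6%), Sdhaf1, Atp5h (65.0%), Uqcrb (62.4%), Ndufs3 (61.4%), Cox7c (56.4%), Atp5o (54.7%) and Cox5a (52.5%). Some of the copies were barely detected: the main copy of Atp5g2 was listed at 0 in every mouse and that of Ndufs3 between 0 and 16 units, where Ndufs3 itself ran from 1712 to 2409. Cox5b, a complex IV subunit, ran from 3012 to 6455 units, and Gm11273, which shares 34.6% of its words, from 9 to 232 in the opposite direction (r = -0.54, n = 48). Ndufb8 and the overlapping Gm20538 moved together (r = 0.96), as did Ndufb6 and Smim27 (r = 0.86). Ndufa12 shared 30.2% of its words with Gm15920, a processed copy at 151 to 496 units, so the level of Ndufa12, 434 to 847 units, is uncertain.

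Use of exons within the members was compared between the lines. No member was called, against 0.510% of 14702 genes. Of at most 96 members, 8 had an unadjusted p under 0.05, a larger share than the 5.32% of all genes. The smallest adjusted p, 0.066, belonged to Ndufa12, an accessory subunit of complex I, and to the last of its 5 listed exons (chromosome 10, start 93683426, mm9). That exon took 26.3% ± 5.57 of the gene's values in High mice and 21.7% ± 4.26 in Low mice (SD, n = 24 each). Relative to the other exons its log2 difference was 0.36. The other 7 were Ndufa9, Atp5o, Ndufab1, Atp5j, Ndufaf1, Sdha and Ndufc1, whose exons with the largest difference held under 2% of the gene's values in either line. In simulated data the exon test called unchanged genes more often than its threshold allows, so even the smallest p is uncertain.

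The members varied together from mouse to mouse. After group means were removed, the median correlation over all 4278 pairs of members was 0.54, against 0.0035 over all pairs of tested genes, and 54.1% of the members' pairs lay above 0.5, against 4.23%. Within complexes the median was 0.76 for complex III, 0.72 for complex I, 0.58 for complex V, 0.47 for complex IV, 0.34 for assembly factors and 0.31 for complex II. Between complexes it was 0.74 for I with III, 0.67 for I with V, 0.66 for I with IV, 0.64 for III with V, 0.58 for III with IV and 0.55 for IV with V. Complex II, with 4 genes, had lower values with the others, at 0.30 with I, 0.37 with III and V and 0.17 with IV. Its own median was 0.45 with the last-exon share regressed out, where I and V had 0.49 and IV had 0.25. Members thus correlated about as closely across complexes I, III, IV and V as inside them. All these values are descriptions over 48 libraries, whose genes share depth, RNA quality and tissue composition.

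Each group had a positive median. Over all pairs it was 0.59 in High females, 0.68 in High males, 0.52 in Low females and 0.49 in Low males (n = 12 mice each). In complex I it was 0.70, 0.84, 0.59 and 0.75 in the same order, and in complex III 0.71, 0.85, 0.68 and 0.72. Complex II had 0.21, 0.31, 0.52 and 0.21 and complex IV 0.56, 0.44, 0.44 and 0.51, so complex II was not the lower of these in Low females. Without High male replicate 1 the median over all mice and pairs was 0.51. The median of complex IV was 0.77 without its 4 members under 5 ppm, the minor isoforms Cox4i2, Cox6b2, Cox7a1 and Ndufa4l2.

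Single members differed widely in how closely they followed the rest. The correlation with the mean of the other members was 0.97 for Ndufa4, 0.97 for Atp5j2, a stalk-side subunit of complex V, 0.96 for Cox7a2, 0.95 for Uqcrh and 0.95 for Ndufb9. It was above 0.9 for 31 members and above 0.8 for 52. It was under 0.2 for 7, the lowest being Ndufa4l2 at -0.22, the flavoprotein Sdha at -0.13, the alpha subunit Atp5a1 at 0.03, Ndufs5 at 0.05 and the core subunit Ndufs1 at 0.07. Sdha, Atp5a1 and Ndufs1 are abundant genes with little spread, so these weak correlations were not among low values. Looked up after these values were seen, Sdha followed the translation factor gene Eif3c most closely (r = 0.93) and Ndufs1 followed Pdha1, a subunit of pyruvate dehydrogenase (r = 0.94). Members with the NRF1 letters in their promoter window had a median correlation with the rest of 0.74 (21 genes), and those without had 0.85 (56 genes). The 21 included Sdha and Ndufs5. For the ETS letters the medians were 0.85 with them (21 genes) and 0.83 without. A relation between letters and co-variation was not tested.

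Transcript length went along with this. Over 93 members Spearman's rho between length and the correlation with the rest was -0.42. The 47 members of 865 bases or less had a median correlation of 0.89, and the 46 longer ones 0.71. The same measure, each gene's correlation with the mean of the members, had rho = -0.42 with length over 13543 genes outside the set. Its median there was 0.46 up to 1000 bases, 0.18 up to 2000, -0.04 up to 4000 and -0.19 beyond, so short transcripts in general followed the members. Exceptions among the members went both ways: Ndufb2 and Atp5g1, with annotated lengths of 2413 and 2676 bases, reached 0.92 and 0.84, and the short Atp5l, Cox6b2 and Ndufs5 stayed under 0.4.

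**Figure D4:**
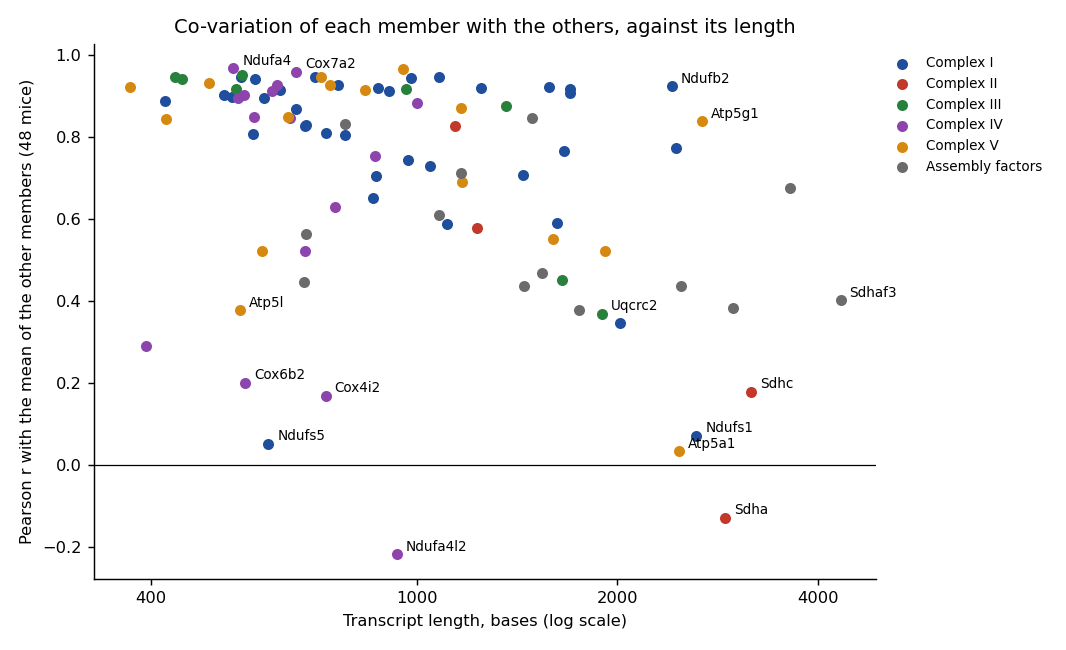
Pearson correlation of each of the 93 tested members with the mean of the other members over 48 mice, group means removed, against transcript length on a log scale, coloured by complex. Most genes under 1000 bases lie above 0.8, while Sdha, Ndufs1, Atp5a1 and Sdhc among the long genes and Ndufs5, Cox6b2, Cox4i2 and Ndufa4l2 among the short ones lie under 0.2 or close to it.

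Outside the set, the 10 genes of at least 5 ppm closest to the mean of the members were Elob (r = 0.94), Tomm7 (0.94), Mrpl20 (0.93), Timm8b (0.93), Ubl5 (0.93), Sem1 (0.93), Rpl27 (0.92), Rpl31 (0.92), Minos1 (0.92) and Park7 (0.92). Tomm7, Timm8b and Minos1 serve mitochondrial import and inner membrane shape and Mrpl20 the mitochondrial ribosome, while Rpl27 and Rpl31 are proteins of the cytosolic ribosome and Elob and Sem1 have other roles. Genes of mitochondria and of other cell parts were thus mixed among the closest.

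The mean of the members in each mouse summarised this shared component. It was the average of the 93 log2 values after each gene was centred. It ran from -0.38 in High male replicate 1 to 0.28 in a Low male. Its mean was -0.01 ± 0.134 in High females, 0.005 ± 0.187 in High males, -0.02 ± 0.119 in Low females and 0.03 ± 0.139 in Low males (SD, n = 12 each), so the groups differed by far less than the mice within them.

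Other measures moved with it, and their part in the shared component was not tested. The last-exon share of a library had r = 0.84 and Spearman's rho = 0.72 with the mean of the members (n = 48), and r = 0.78 without the 2 libraries with the most extreme shares. Within groups r was 0.89 in High females, 0.79 in High males, 0.82 in Low females and 0.88 in Low males. The mean of 45 cytosolic ribosomal protein genes had r = 0.89, rho = 0.81 and 0.84 without the 2 farthest libraries. Of 32 measures examined, the mean of the partners outside the rule was closest (r = 0.95). Single genes of that list ran from 0.02 for Etfdh to 0.92 for Minos1, with Cycs, the gene of cytochrome c, at 0.72. Complex II again differed, with r = 0.15 between its mean and the last-exon share, where the other complexes had 0.81 to 0.85 and the assembly factors 0.71. Its genes were not alike. With the mean of the other members Sdhb had r = 0.83 and Sdhd 0.58, while Sdha had -0.13 and Sdhc was also low. Their median transcript length was 2065.5 bases, against 631.5 to 872.75 in the other complexes. The part of length in this contrast was not tested. The mean of complex II went instead with carriers and channels (r = 0.79), complex III and IV assembly factors (0.76), citric acid cycle genes (0.75) and the deposited total (0.75). The mean of all members had 0.69, 0.77, 0.06 and 0.36 with the same measures, so among these 4 the contrast was widest for the citric acid cycle. It was not particular to that cycle. Glycolysis genes, outside these 4, had r = 0.58 with the mean of complex II and -0.12 with that of all members. With the last-exon share regressed out, the median correlation between members was 0.41, and with the ribosomal protein mean regressed out, an alternative chosen after seeing the data, it was 0.29.

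**Figure D5:**
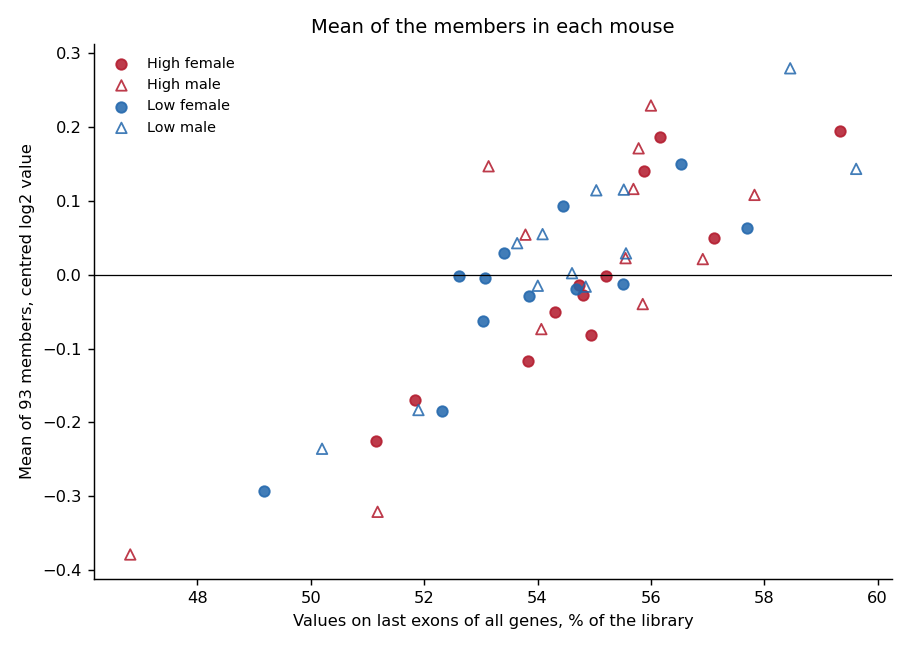
Mean of the 93 tested members in each of 48 mice, on a centred log2 scale, against the share of the library's values on last exons in percent, coloured by line and shaped by sex. The points rise together from High male replicate 1 at the lower left, and the 4 groups are mixed along the trend.

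Markers of cell types followed the mean of the members less. Ependymal and choroid plexus markers had r = 0.42 and rho = 0.44, with r = 0.71 in High females, and astrocyte markers had r = 0.34 and rho = 0.39, with r = 0.64 in High females. Of the 7 ependymal and choroid plexus markers, 5 passed the filter and 3 averaged under 1 ppm, but all entered their mean. Singly, Kl, Clic6 and Ttr had r = -0.07, 0.02 and 0.04, and Folr1, Tmem212, Foxj1 and Ccdc153 had 0.23, 0.35, 0.35 and 0.51. Oligodendrocyte precursor markers had r = -0.48 and rho = -0.38, and the cortical pyramidal marker mean had r = -0.43, which was -0.21 without the 2 libraries with the highest values. The shared markers of spiny neurons had r = -0.19, those of the direct pathway -0.10 and those of the indirect pathway 0.21. Oligodendrocyte markers lay below 0 for 10 of 10 in High minus Low, 8 of them with an unadjusted p under 0.05 and none called, and had r = 0.07 with the members. Their summed level ran from 780 to 1818 ppm in High females, 674 to 1574 in High males, 1165 to 1844 in Low females and 994 to 1837 in Low males.

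Genes next to the set in the pathway were read from the same fit. No gene of the 10 neighbouring lists was called for line, sex or interaction. Of all tested genes, 0.280%, 0.0782% and 0% were called, so few or no calls would be looked for in lists of this size. The 13 mRNAs of mitochondrial DNA, which encode subunits of complexes I, III, IV and V but not II, lay above 0 for 5 in High minus Low, with 6 under an unadjusted p of 0.05. Of these mt-Nd4l stood at 8 to 20 units in Low and 7 to 111 in High (log2 difference 0.91, SE 0.22, adjusted p = 0.053), and mt-Nd3 at 13 to 42 and 9 to 305 (1.16, SE 0.31, adjusted p = 0.0868). In each, 10 of 24 High mice lay above every Low mouse. However, mt-Nd4l averaged only 1.91 ppm and mt-Nd3 4.16, where mt-Nd4 averaged 4769 and mt-Cytb 9233. Low averages, from 2.01 to 11.3 ppm, were also listed for mt-Co2, mt-Co3, mt-Atp6 and mt-Atp8. Values this low may not stand for the mitochondrial mRNA, and where these reads came from was not tested. The 13 mRNAs followed the nuclear members with r = 0.60 and rho = 0.58 over the list mean, although mt-Nd3 and mt-Nd4l did not (r = -0.02 and -0.12). Of 12 partners outside the rule, 1 had an unadjusted p under 0.05, the supercomplex factor Cox7a2l, at 687 to 1876 units in High and 925 to 2008 in Low (-0.24, SE 0.10, adjusted p = 0.437). The counts under an unadjusted p of 0.05 were 1 of 27 for complex III and IV assembly factors, 2 of 10 for other complex I assembly factors, 1 of 5 for those of complex V and 1 of 18 for the citric acid cycle. They were 1 of 18 for regulators of mitochondrial biogenesis, 0 of 13 for carriers and channels, 2 of 16 for glycolysis and 2 of 12 for uncoupling and antioxidant genes. The share of all tested genes at that threshold was 9.07%, and the genes cut from 1 mitochondrial precursor transcript are not independent of each other.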

How the data were processed

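Poly(A) RNA-seq libraries of 48 mice, 1 per mouse and 12 per group, were used as deposited. The values the authors deposited are a score: table names call them normalized counts per gene and per exon, and they are whole numbers. The submitters' processing notes list STAR 2.4.0 and edgeR 3.4.2, beside CASAVA, FastQC and R 3.0.2, and the build mm9. Counter, strand setting, annotation and scaling are not given in the sources used here. Since the values were rounded after scaling, no count model was run and no counting intervals are given. Symbols came from GENCODE M21 by Ensembl identifier, which matched 32897 of 37620 genes.

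The gene test was limma 3.58.1 (R 4.3.3) on log2(value + 0.5 ppm), where 1 ppm is 14.1 deposited units. A gene entered it with at least 1 ppm in 12 or more libraries. All 48 libraries entered 1 fit with 4 group means and a mean-variance trend, and p values were adjusted by Benjamini-Hochberg over all tested genes. Spread was tested by the same fit on absolute deviations from group medians. Exon usage was tested with limma's diffSplice, a filter of 0.1 ppm, a pseudocount of 0.05 ppm and Simes p values. These tests were tried on simulated data with known changes, with noise drawn independently for each gene. The gene test recovered line differences of 0.5 and 1 on the log2 scale. Smaller differences, such as those of most members, and noise shared between genes were not simulated. The exon test also called many unchanged genes. Levels per kilobase used the median length of principal coding transcripts in GENCODE M21, since the deposited exons give starts only; this replaces the planned length of listed exons. Word sharing counted 25-base words of a member's transcripts found in any other gene. Promoter windows came from RefSeq (GRCm38.p6); no coordinate was converted between builds. Values were handled with pandas 2.3.3 and numpy 2.4.6, and figures were drawn with matplotlib 3.10.9.

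The members, lists and tests were chosen with earlier results of these data known, so no p is given for a list or for the mean of the members. Named were, per comparison, the 2 members per complex with the smallest p and the 5 with the largest difference in each direction at 5 ppm or more. For levels these were the 3 highest and 2 lowest per complex, untested members, paralogs and X-linked members, and for spread the 8 largest and 5 smallest SDs. For co-variation they were the 5 most and 5 least correlated members and the 10 closest other genes. With 1 library per mouse, p values rest on variation among the mice sampled. For 1 complex I gene that the rule names, values are not reported here. Genes outside this rule were named for their role or after their values were seen. Alternatives varied the pseudocount, filter, scaling, library weights, empirical Bayes settings, covariates and libraries.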

Additional observations from a re-analysis of the deposited data

How the results depend on the processing

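No paired analysis was possible because the labels pair no mice and replicate numbers only name libraries. With 12 mice per group, replicates were not left out in turn. The differences of Ndufaf7, Cox6b2, Cox6a2, Cox7a1, Sdhaf1, Atp5g1 and Ndufc2 kept their sign. The majority of members above or below 0 changed sides for the line differences and their interaction. Members called for line went from 0 to 1, Ndufaf7, with the last-exon share as a covariate; in the other comparisons none was called under any of the alternatives run. All genes called for line went from 43 to 25 with a filter of 5 ppm in 24 libraries, 80 with library weights and 77 with the last-exon share or oligodendrocyte markers as a covariate. In females they went from 4 to 2 without a filter or with the last-exon share, and to 7 with library weights. For spread they went from 9 to 15 without a filter or with library weights, and to 1 with the stricter filter. For exon usage they went from 75 to 31 with a pseudocount of 0.5 ppm and to 20 with a filter of 1 ppm or with the F test. Members above 0 for line went from 45 to 24 with the last-exon share, to 29 with cortical pyramidal markers and to 60 without High male replicate 1. In females they went from 55 to 19 with the last-exon share. In males they went from 28 to 65 with library weights, 63 without High male replicate 1 and 50 with the last-exon share. For the interaction they went from 60 to 27 and 20 with library weights and the last-exon share, and for sex from 13 to 8 with library weights. The cause was not tested for any of these.

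Per kilobase of all annotated exons, which is longer, the median levels were 105 ppm in complex I, 90.1 in II, 157 in III, 193 in IV, 154 in V, 12.5 among assembly factors and 102 over all members. With the last-exon share regressed out, the median correlation was 0.41 over all members, 0.49 in complex I, 0.45 in II (0.31 before), 0.53 in III, 0.25 in IV, 0.49 in V and 0.18 among assembly factors. With the mean of cytosolic ribosomal protein genes regressed out, an alternative chosen after seeing the data, it was 0.29, 0.38, 0.34, 0.41, 0.21, 0.31 and 0.15 in the same order. Among members at 5 ppm or more it was 0.77 in complex IV, and with cortical pyramidal and oligodendrocyte markers regressed out it was 0.26 among assembly factors.

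Depth limits the isoforms under 10 ppm, whose values rest on few reads. The deposited values are already scaled, so counting error could not be separated from variation between mice.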
